A study of Danio rerio with 26 samples.

Results

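The 114 genes described here encode G-protein coupled receptors for amines, glutamate, peptides and lysolipids, and they were taken by symbol from the 30979 genes of 4 RNA-Seq tables of whole zebrafish embryos. The symbols belong to 14 families: 19 serotonin, 15 adrenergic, 11 dopamine and 9 muscarinic acetylcholine receptor genes, 12 metabotropic glutamate receptor genes, 6 melanocortin, 5 neuropeptide Y, 5 somatostatin, 5 tachykinin, 4 galanin, 4 opioid and 2 bradykinin receptor genes, and 10 lysophosphatidic acid and 7 sphingosine 1-phosphate receptor genes. All 114 were listed in each mutant table, and 112 in the morphant table, which does not list galr1a and npy4r. The study asked which transcripts depend on the exon junction complex (EJC), a protein complex left on spliced RNA, and on Upf1, the helicase of nonsense-mediated mRNA decay (NMD). Embryos labelled magoh mutant at 21 hours post-fertilization (hpf) and rbm8a mutant at 21 and 27 hpf were each set against embryos labelled as their siblings, with 3 libraries a group. Morphants at 12 hpf, which carry a splice-blocking upf1 morpholino injected at the 1-cell stage, were set against uninjected wild-type controls, with 2 libraries a group. The mutants carry CRISPR/Cas9 frameshift alleles, oz37 of magoh and oz36 of rbm8a, in the AB strain. Their siblings are a mix of wild-type and heterozygous embryos, and mutants still hold maternal Rbm8a and Magoh protein. Each library came from pooled embryos. Libraries of the mutant tables were made from total RNA freed of ribosomal RNA, and those of the morphant table from polyA RNA. The study calls the libraries of a group biological replicates. Its methods state that some or all replicates of each mutant experiment were sequenced in separate runs, which added variability between them. The labels do not name the run of a library. Nothing in the sources says that the libraries of a group came from separate clutches, so each p-value measures the spread between these libraries.

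All of these receptors are 7-pass membrane proteins that switch on heterotrimeric G proteins when a ligand binds outside the cell. Receptors for serotonin, dopamine, noradrenaline, acetylcholine and glutamate are known from neurons, as are those for neuropeptides such as somatostatin and galanin. There they set excitability and transmitter release, though several of these receptors are not confined to neurons. Receptors for lysophosphatidic acid and sphingosine 1-phosphate read lipids made outside neurons too, and in zebrafish s1pr2 is known for its part in the migration of heart precursors. In RNA of whole embryos, fewer cells of a type and less receptor RNA per cell cannot be told apart.

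Levels are FPKM, fragments per kilobase of gene model scaled to library size, which the authors scaled by size factors and not by read totals. The 4 tables were normalized separately, so levels set across them are only descriptive. Reads recovered from the FPKM gave 14884582 to 24086370 reads per library in the magoh table, 1561184 to 71708299 reads in the rbm8a table at 21 hpf, 9193992 to 95877745 reads in the rbm8a table at 27 hpf and 73345144 to 93157779 reads in the morphant table. Receptor genes were thinly covered in many of these libraries. The median receptor gene had 17 reads in the magoh table's mutant-labelled replicate 1 and 51.5 in its sibling-labelled replicate 2, and 251 to 376 reads in the other 4 libraries. In the rbm8a table at 21 hpf it had 18.5, 20 and 10 reads in mutant-labelled replicates 1, 2 and 3, against 38.5, 59.5 and 276 reads in the sibling-labelled ones, and at 27 hpf it had 8.5 reads in mutant-labelled replicate 3 and 10 in sibling-labelled replicate 2. For so few reads the counting error of a single library is itself wide, and counting intervals would cover counting error only.

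The levels of the targeted genes did not separate the labels of the mutant tables, so the libraries are named below by what they are labelled. Its own table gave magoh 17.0, 3.67 and 3.58 FPKM in mutant-labelled replicates 1, 2 and 3, against 4.42, 13.6 and 6.51 FPKM in the sibling-labelled ones. At 21 hpf rbm8a had 7.01, 7.28 and 8.39 FPKM in mutant-labelled libraries, against 6.99, 13.2 and 13.3 FPKM in sibling-labelled ones, and at 27 hpf it had 3.69, 3.65 and 14.4 FPKM in mutant-labelled libraries, against 2.82, 12.7 and 10.7 FPKM in sibling-labelled ones. The labelled groups overlap in each of these 3 tables. In the limma fit the targeted gene was lower under the mutant label, with log2 differences of -0.32 ± 0.22 for magoh (SE, limma adjusted p = 0.847), -0.45 ± 0.33 for rbm8a at 21 hpf (SE, limma adjusted p = 1.0) and -0.22 ± 0.58 for rbm8a at 27 hpf (SE, limma adjusted p = 0.852). That fit holds a covariate for how libraries of the same label differ, so these are not differences of plain means. The plain mean FPKM of magoh was about equal under both labels. In both rbm8a tables the first 3 columns (mutant 1, sibling 1, mutant 2) all hold less rbm8a than the last 3 (sibling 2, mutant 3, sibling 3). No genotype was given to a place in the file, and values by place stand below as a description, without a test. In the morphant table upf1 had 30.3 and 31.3 FPKM in morphants, against 45.2 and 45.9 FPKM in controls. From here on, 3 values of a labelled group are in the order of replicates 1, 2 and 3.

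**Figure D1:**
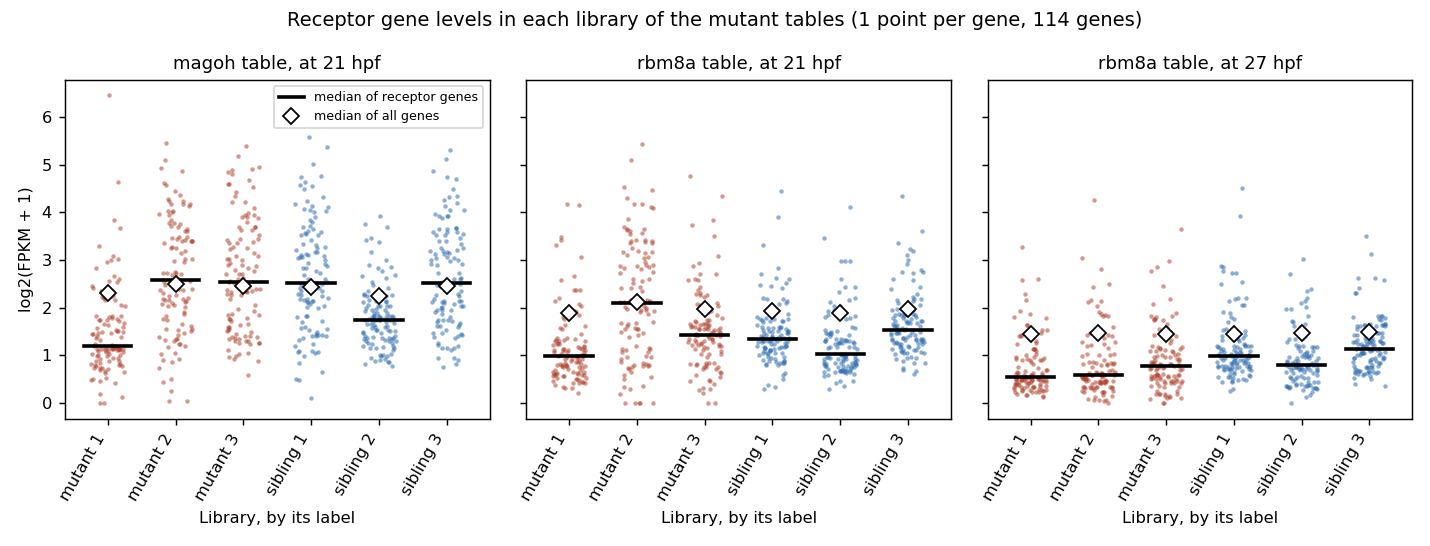
Levels of the 114 receptor genes as log2(FPKM + 1) in each library of the magoh table at 21 hpf and of the rbm8a tables at 21 and 27 hpf, with libraries labelled mutant in red and those labelled sibling in blue. Black bars are medians of the receptor genes, and diamonds are medians of all genes of the table. In the magoh table the receptor median is lowest in the libraries labelled mutant 1 (1.29 FPKM) and sibling 2 (2.36 FPKM), and in the rbm8a table at 21 hpf it is highest in that labelled mutant 2 (3.28 FPKM).

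At 27 hpf most receptor genes for transmitters stood lower in the libraries labelled rbm8a mutant than in those labelled sibling. Of the 92 receptor genes that passed a minimum of 0.5 FPKM in 3 libraries, 78 had a log2 difference below 0, against 49.3% of all 28845 genes tested, and their median was -0.32, against 0.01 over all genes. The other 22 receptor genes did not pass the minimum, which 93.2% of all genes passed, and were not in the main fit. The amine receptors were lower in 41 of 44 genes (median -0.38), the glutamate receptors in 11 of 11 (median -0.46) and the peptide receptors in 18 of 21 (median -0.20), while 8 of 16 lipid receptors were lower (median -0.03). limma with Benjamini-Hochberg adjustment over all genes called 0 of the 92 (adjusted p under 0.05 with a 1.5-fold difference), as was the case for 0% of all genes. At an unadjusted p under 0.05, 26 receptor genes were lower and 1 was higher, against 8.64% of all genes lower and 6.21% higher.

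Apart from the model, 21 of the 92 tested receptor genes had every library labelled mutant below every library labelled sibling, against 9.92% of all genes, and 0 had every one above, against 10.5% of all genes. These 21 genes are 14 amine receptors, 6 glutamate receptors and the somatostatin receptor gene sstr5, with 0 of the lipid receptors among them. Libraries of a single label can meet the minimum, as those labelled sibling did for adra2c, chrm5a, drd2a, htr1aa and htr1b. The receptor median was below that of all genes in every library here, so the minimum may weigh unequally on these shares, which was not tested. Of the 22 receptor genes under it, 7 were lower without overlap and 0 higher. No share was taken over all genes under the minimum, so these counts have no background of their own. With no minimum 99 of 114 receptor genes were below 0 (median -0.31, against -0.01 over all genes). Quantile normalization left 63 of the 92 below 0 with a median of -0.15, and it put the lipid receptors at a median of 0.10. Under it only 9 receptor genes had an unadjusted p under 0.05, against 27 in the main fit. Over all 28845 genes that count was 2253, against 4283 in the main fit. FPKM rescaled to each library's read total, an alternative chosen after seeing the data, gave 83 of 89 below 0 with a median of -0.43, against -0.21 over all genes.

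**Figure D2:**
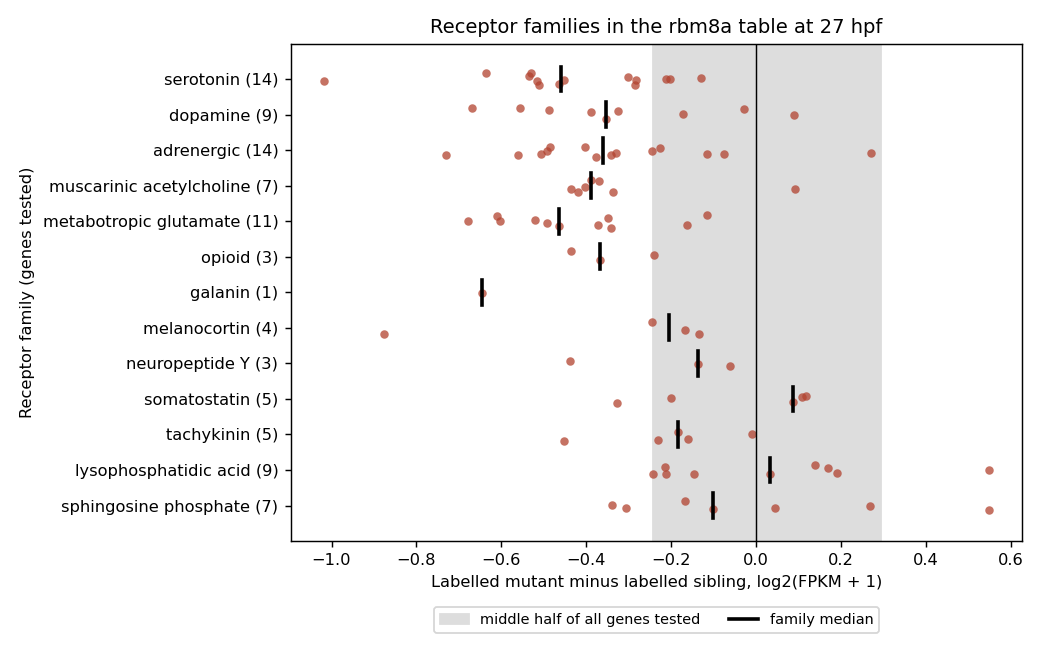
Difference between the libraries labelled rbm8a mutant and those labelled sibling at 27 hpf, on the log2(FPKM + 1) scale, for the 92 receptor genes tested, by family, with 1 point per gene. Black bars are family medians and the gray band holds the middle part of all genes tested, between the lower and upper quartiles. The serotonin (-0.46) and glutamate (-0.46) families have the lowest medians among families with more than 1 gene tested, and the lysophosphatidic acid family (0.03) lies near 0.

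The metabotropic glutamate receptors, which damp or raise synaptic transmission by way of G proteins, gave the smallest p-value among the receptor genes. grm2a, a receptor known in mammals to hold back glutamate release, had 0.617, 0.552 and 0.975 FPKM in mutant-labelled libraries, against 1.94, 1.65 and 1.41 FPKM in sibling-labelled ones. The libraries of the labelled groups do not overlap for this gene, and the log2 difference was -0.61 ± 0.16 (SE, limma adjusted p = 0.323). grm3, of the same subgroup, had 0.401, 0.552 and 0.517 FPKM in the libraries labelled mutant, against 1.14, 1.65 and 1.07 FPKM in those labelled sibling, a difference of -0.60 ± 0.16 (SE, limma adjusted p = 0.323). Again no labelled mutant library reached a labelled sibling one. The family's highest gene at this stage, grm6b, the receptor of retinal ON bipolar cells in mammals, was uneven within the labels and had 1.94, 0.799 and 4.49 FPKM in mutant-labelled libraries, against 14.2, 3.02 and 1.78 FPKM in sibling-labelled ones. Its level in the library labelled sibling replicate 1 was above the other 5, and the groups overlap.

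Serotonin receptors were lower in 14 of 14 genes tested. Of these, htr1aa and htr1b met the minimum only in the libraries labelled sibling, so the minimum itself favours a lower value for them. htr2cl2, a htr2c-like gene of the Gq-coupled subgroup, had 0.308, 2.64 and 0 FPKM in the libraries labelled mutant, against 2.4, 0.613 and 3.96 FPKM in those labelled sibling, and a difference of -1.02 ± 0.27 (SE, limma adjusted p = 0.323). Its labelled groups overlap, since mutant replicate 2 lies above sibling replicate 2. htr5ab, of the htr5 subgroup, had 0.347, 0.555 and 0.197 FPKM in mutant-labelled libraries, against 0.693, 0.625 and 1.18 FPKM in sibling-labelled ones, with no overlap and a difference of -0.47 ± 0.14 (SE, limma adjusted p = 0.327). htr1b, a Gi-coupled receptor found on axon endings in mammals, had 0.266, 0.454 and 0.458 FPKM in the libraries labelled mutant, against 0.781, 0.691 and 2.06 FPKM in those labelled sibling. Its groups do not overlap either, with a difference of -0.64 ± 0.21 (SE, limma adjusted p = 0.333), although the library labelled mutant replicate 3 rests on 4 reads and that labelled sibling replicate 2 on 7. htr6, a Gs-coupled receptor and the most abundant receptor gene of the table, had 5.11, 7.23 and 11.6 FPKM in mutant-labelled libraries, against 21.8, 7.09 and 10.3 FPKM in sibling-labelled ones, and its groups overlap.

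Dopamine receptors were lower in 8 of 9 genes tested, and 5 of these had an unadjusted p under 0.05. The highest of them, drd4a, a D2-like receptor, had 0.421, 1.02 and 0.746 FPKM in the libraries labelled mutant, against 1.68, 0.92 and 2.53 FPKM in those labelled sibling, with overlapping groups and a difference of -0.67 ± 0.22 (SE, limma adjusted p = 0.333). Adrenergic receptors were lower in 13 of 14, led in level by adra1ba with 2.12, 2.57 and 3.53 FPKM in mutant-labelled libraries, against 5.81, 2.96 and 4.3 FPKM in sibling-labelled ones. The muscarinic receptors, which answer acetylcholine, were lower in 6 of 7, and their highest gene chrm2a had 0.308, 0.793 and 0.778 FPKM in the libraries labelled mutant, against 1.26, 0.746 and 1.43 FPKM in those labelled sibling. For adra1ba mutant-labelled replicate 3 lay within the range of the sibling-labelled libraries, and for chrm2a mutant-labelled replicates 2 and 3 did. In these counts adra2c, chrm5a and drd2a met the minimum only in the libraries labelled sibling, drd2a being among the 5 dopamine genes.

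The peptide receptors had a median difference of -0.20. galr2b, a galanin receptor and the only one of 4 to pass the minimum, had 1.0, 0.775 and 1.94 FPKM in mutant-labelled libraries, against 2.78, 3.6 and 1.71 FPKM in sibling-labelled ones, with a difference of -0.65 ± 0.18 (SE, limma adjusted p = 0.323). Here mutant-labelled replicate 3 lies above sibling-labelled replicate 3. mc4r, the melanocortin receptor known for the control of feeding, had 0.607, 1.04 and 0.14 FPKM in the libraries labelled mutant, against 3.61, 0.362 and 2.15 FPKM in those labelled sibling, a difference of -0.88 ± 0.38 (SE, limma adjusted p = 0.334). Its 2 lowest libraries, mutant replicate 3 and sibling replicate 2, rest on 1 and 3 reads. The melanocortin receptor with the highest mean, mc5ra, had 1.2, 0.393 and 1.86 FPKM in mutant-labelled libraries, against 1.56, 1.53 and 1.58 FPKM in sibling-labelled ones. Those groups overlap.

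Other peptide families were mixed. sstr2b, a receptor that couples somatostatin to Gi, had 4.94, 4.42 and 6.22 FPKM in the libraries labelled mutant, against 6.26, 3.27 and 5.17 FPKM in those labelled sibling, and 3 of 5 somatostatin receptors were above 0. tacr1a, the substance P receptor, had 2.82, 3.35 and 3.23 FPKM in mutant-labelled libraries, against 4.85, 4.28 and 2.56 FPKM in sibling-labelled ones, and tacr3a, the neurokinin B receptor, had 0.578, 0.507 and 0.481 FPKM in the libraries labelled mutant, against 0.928, 0.311 and 2.17 FPKM in those labelled sibling. All 5 tachykinin receptors were below 0, with 0 of them at an unadjusted p under 0.05. npy1r, a neuropeptide Y receptor, had 0.373, 0.462 and 1.97 FPKM in mutant-labelled libraries, against 1.01, 0.756 and 1.13 FPKM in sibling-labelled ones, while npy2r, known for its place on axon endings, had 0.366, 0.358 and 1.18 FPKM in the libraries labelled mutant, against 0.808, 0.793 and 2.09 FPKM in those labelled sibling. oprd1b, a delta opioid receptor, had 0.517, 0.51 and 1.28 FPKM in mutant-labelled libraries, against 1.28, 1.27 and 1.32 FPKM in sibling-labelled ones. The labelled groups overlap for each of these 6 genes. The bradykinin receptors bdkrb1 and bdkrb2 did not pass the minimum, with at most 0.812 FPKM in any library.

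The lipid receptors did not share the direction of the transmitter receptors. s1pr5a, a sphingosine 1-phosphate receptor, was the 1 receptor gene higher at an unadjusted p under 0.05, and had 3.9, 4.62 and 2.36 FPKM in the libraries labelled mutant, against 1.47, 2.09 and 2.41 FPKM in those labelled sibling, a difference of 0.55 ± 0.20 (SE, limma adjusted p = 0.333). lpar4, the most abundant lipid receptor of the table, had 8.63, 18.2 and 6.9 FPKM in mutant-labelled libraries, against 5.63, 5.53 and 7.7 FPKM in sibling-labelled ones, with a difference of 0.55 ± 0.26 (SE, limma adjusted p = 0.351). For both genes the range of the libraries labelled mutant overlaps that of the libraries labelled sibling. s1pr3a, another sphingosine 1-phosphate receptor, had 0.553, 0.38 and 0.51 FPKM in the libraries labelled mutant, against 1.03, 0.33 and 1.19 FPKM in those labelled sibling. It lies with the transmitter receptors in direction, at -0.31 ± 0.21 (SE, limma adjusted p = 0.46).

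The direction at 27 hpf held, and its size varied, as single libraries were left out. Between 71 of 92 receptor genes (without the library labelled sibling replicate 3) and 95 of 105 (without that labelled sibling replicate 2 or mutant replicate 3) stayed below 0, and the median lay between -0.37 and -0.24. The count at an unadjusted p under 0.05 ranged from 6 (without the library labelled mutant replicate 2 or sibling replicate 3) to 43 (without that labelled sibling replicate 2). Without the library labelled sibling replicate 2, htr2cl2 (log2 difference -1.44, adjusted p = 0.0324) and mc4r (-1.33, adjusted p = 0.0370) were called lower by limma, among 370 genes higher and 242 lower over all genes.

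In FPKM some markers of other cell types differed between the same labelled groups at 27 hpf. All 10 skeletal muscle markers measured were above 0, with a median of 0.41, and their summed level was 567 to 794 FPKM in the libraries labelled mutant, against 407 to 549 FPKM in those labelled sibling. The 11 neuron markers measured summed to 50.1 to 67.6 FPKM in the libraries labelled mutant, against 36.3 to 51.5 FPKM in those labelled sibling, and 7 of them were above 0. Among them elavl3, an RNA-binding protein of early neurons, and stmn2a, a stathmin of growing axons, were higher in every library labelled mutant, while the synaptic genes snap25b and syt1b were lower in every one, with syt1b at 0 FPKM in the library labelled mutant replicate 3. Of all genes tested at this stage, 10.5% were higher without overlap and 9.92% lower. Endothelium markers summed to 14.9 to 20.0 FPKM, against 15.2 to 45.6 FPKM, and pigment cell markers to 15.4 to 25.8 FPKM, against 15.8 to 20.9 FPKM. Apart from syt1b, 0 of these markers was at 0 in a library. The part of these cell types in the receptor differences was not tested.

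In the magoh table at 21 hpf the receptor genes varied mainly between libraries of the same label. In 69 of 114 receptor genes (60.5%) the libraries labelled mutant replicate 1 and sibling replicate 2 were both below the other 4 libraries, as in 30.1% of all genes tested, and in 5 receptor genes (4.39%) both were above, as in 30.5% of all genes. The pattern took in 37 of 54 amine receptors, 11 of 12 glutamate receptors, 14 of 31 peptide receptors and 7 of 17 lipid receptors. drd1a, a D1-type dopamine receptor, had 0.857, 29.4 and 26.8 FPKM in mutant-labelled libraries, against 46.6, 2.17 and 21.6 FPKM in sibling-labelled ones. In reads this was 6 of 19536839 reads in the library labelled mutant replicate 1 and 31 of 16887639 reads in that labelled sibling replicate 2, against 587 to 1161 in the other 4.

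Genes of other families stood low in the same pair of libraries. adra1aa, an alpha-1 adrenergic receptor, had 0.639, 27.9 and 27.7 FPKM in the libraries labelled mutant, against 25.9, 1.78 and 18.2 FPKM in those labelled sibling. tacr3a had 0.619, 15.3 and 28.6 FPKM in mutant-labelled libraries, against 23.7, 2.37 and 16.5 FPKM in sibling-labelled ones, and s1pr5b, the most abundant sphingosine 1-phosphate receptor there, had 2.53, 33.3 and 40.8 FPKM in the libraries labelled mutant, against 31.4, 3.87 and 33.7 FPKM in those labelled sibling. Among the libraries labelled mutant alone, the highest exceeds the lowest by more than 10-fold in each of these 4 genes. In FPKM lpar4 ran the other way, with 13.3, 3.39 and 3.84 FPKM in mutant-labelled libraries, against 3.13, 11.9 and 3.54 FPKM in sibling-labelled ones. So did tacr1a, with 8.78, 5.28 and 4.0 FPKM in the libraries labelled mutant, against 5.06, 9.63 and 4.68 FPKM in those labelled sibling, and the remaining 3 genes of that kind were adrb3a, lpar1 and s1pr2.

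**Figure D3:**
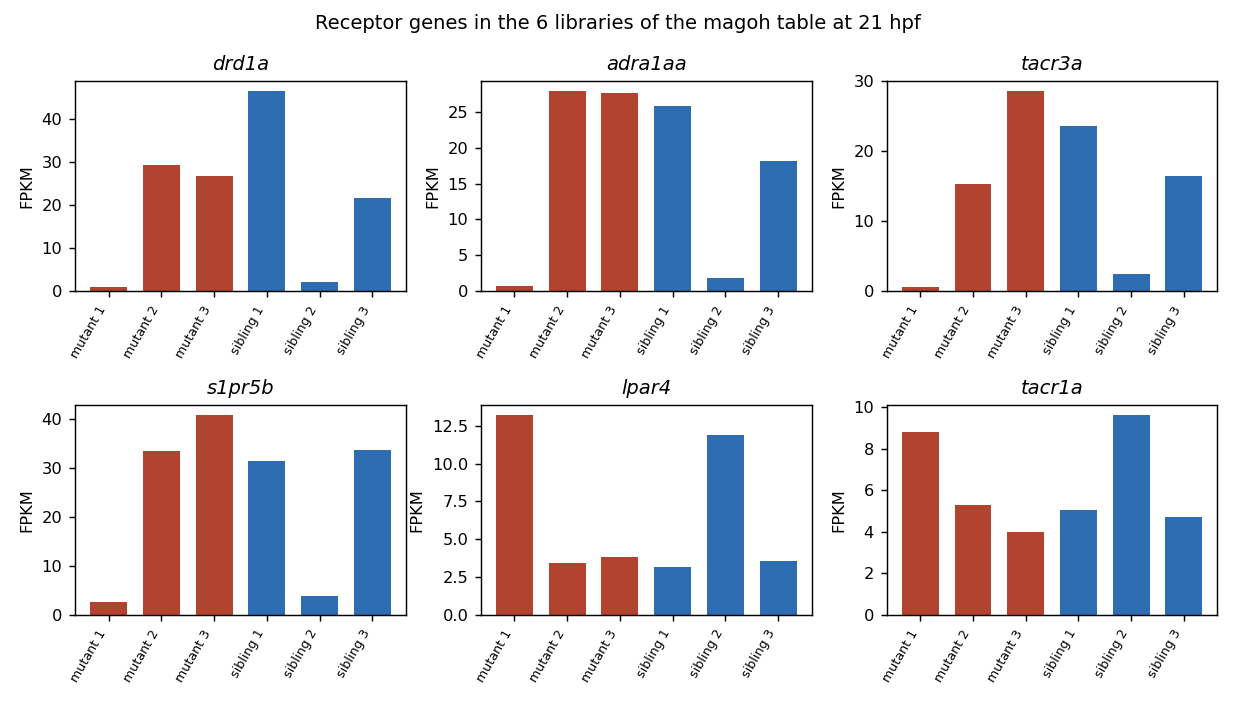
FPKM of 6 receptor genes in the libraries of the magoh table at 21 hpf, with 1 bar per library, those labelled mutant in red and those labelled sibling in blue. drd1a, adra1aa, tacr3a and s1pr5b are lowest in the libraries labelled mutant 1 and sibling 2. On this scale, which is set by size factors, lpar4 and tacr1a are highest in them.

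The same pair of libraries differed in cell type markers. Skeletal muscle markers summed to 733 FPKM in the library labelled mutant replicate 1 and 384 FPKM in that labelled sibling replicate 2, against 124 to 145 FPKM in the other 4. Endothelium markers summed to 43.1 and 36.1 FPKM in that pair, against 68.0 to 74.2 FPKM. In FPKM neuron markers were not lower there, at 115 and 69.7 FPKM, against 64.7 to 75.6 FPKM in the other 4. The size factors behind FPKM set the depth of that pair below its reads, and that of the other 4 above theirs. Relative to read totals, FPKM of the pair are thus raised against the other 4. The neuron comparison therefore holds for the FPKM scale only, and the muscle excess is larger on it than by read totals. The part of these cell types in the receptor levels, and that of the sequencing run, was not tested.

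By label, the magoh table separated few receptor genes. All 114 passed the FPKM minimum, as did 97.9% of all genes. limma called 0 of them, as for 0% of the 30281 genes tested, and 2 had an unadjusted p under 0.05, against 4.40% of all genes. The median log2 difference was -0.02, against 0.05 over all genes, with 63 of 114 below 0, against 43.9% of all genes. In 2 receptor genes, mc5ra and oprm1, every library labelled mutant was below every one labelled sibling, against 2.04% of all genes, and in 0 every one was above, against 1.93% (3.97% in either direction).

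The smallest p-values came from an opioid and a melanocortin receptor. oprd1b had 1.52, 3.35 and 4.24 FPKM in mutant-labelled libraries, against 7.44, 2.5 and 7.02 FPKM in sibling-labelled ones, a difference of -0.61 ± 0.23 (SE, limma adjusted p = 0.847), with overlapping groups. mc5ra had 2.3, 1.69 and 2.12 FPKM in the libraries labelled mutant, against 3.42, 5.18 and 2.37 FPKM in those labelled sibling, with a difference of -0.60 ± 0.25 (SE, limma adjusted p = 0.847). The next 4 genes all had overlapping groups. drd2a, a D2 dopamine receptor, had 0.717, 2.54 and 1.85 FPKM in mutant-labelled libraries, against 3.54, 1.96 and 3.32 FPKM in sibling-labelled ones, a difference of -0.53 ± 0.23 (SE, limma adjusted p = 0.847). s1pr5a had 11.8, 4.18 and 1.74 FPKM in the libraries labelled mutant, against 1.69, 4.14 and 1.63 FPKM in those labelled sibling, a difference of 0.68 ± 0.30 (SE, limma adjusted p = 0.847). npy2r had 0.675, 4.46 and 4.12 FPKM in mutant-labelled libraries, against 5.05, 2.45 and 7.19 FPKM in sibling-labelled ones, which gave -0.53 ± 0.23 (SE, limma adjusted p = 0.847). The only serotonin receptor among these 6 genes was htr1fa, a Gi-coupled type, with 1.6, 19.6 and 22.2 FPKM in the libraries labelled mutant, against 15.3, 1.5 and 15.5 FPKM in those labelled sibling, a difference of 0.50 ± 0.23 (SE, limma adjusted p = 0.847). Its values in the libraries labelled mutant replicate 1 and sibling replicate 2 were about as low as each other.

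The most abundant receptor genes of the magoh table were sstr2b and htr6. sstr2b had 86.6, 23.6 and 20.4 FPKM in mutant-labelled libraries, against 19, 12.6 and 38.6 FPKM in sibling-labelled ones, and htr6 had 23.8, 42.5 and 35 FPKM in the libraries labelled mutant, against 40.3, 14.2 and 28.3 FPKM in those labelled sibling. In FPKM sstr2b was higher in the library labelled mutant replicate 1 than in the other 5, so on that scale it did not share the low level that most receptors had in that library. Among the melanocortin receptors mc4r led with 1.73, 22.7 and 19.4 FPKM in mutant-labelled libraries, against 17.9, 2.54 and 17.2 FPKM in sibling-labelled ones, and among the muscarinic ones chrm4a with 2.22, 17.1 and 6.42 FPKM in the libraries labelled mutant, against 7.98, 1.91 and 10.4 FPKM in those labelled sibling. htr1b had 1.3, 9.61 and 14 FPKM in mutant-labelled libraries, against 13.4, 1.62 and 14.5 FPKM in sibling-labelled ones. All 3 were lowest in the libraries labelled mutant replicate 1 and sibling replicate 2.

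The leading genes of the remaining families gave the same picture with some exceptions. grm5b, a Gq-coupled glutamate receptor, had 1.59, 12.4 and 13.6 FPKM in the libraries labelled mutant, against 15.6, 2.34 and 10.9 FPKM in those labelled sibling. npy4r, a neuropeptide Y receptor, had 1.65, 17.1 and 23 FPKM in mutant-labelled libraries, against 26, 2.54 and 19.2 FPKM in sibling-labelled ones, and bdkrb1, a bradykinin receptor, had 0.433, 12.8 and 12.9 FPKM in the libraries labelled mutant, against 14, 0.922 and 8.58 FPKM in those labelled sibling. These 3 are again lowest in that pair of libraries. oprk1, the kappa opioid receptor, had 1.15, 5.58 and 5.57 FPKM in mutant-labelled libraries, against 7.55, 2.06 and 11.8 FPKM in sibling-labelled ones, and lpar2b, a lysophosphatidic acid receptor, had 6.99, 11.6 and 14.4 FPKM in the libraries labelled mutant, against 16.3, 4.58 and 19.1 FPKM in those labelled sibling. s1pr3a had 0.919, 9.8 and 23.2 FPKM in mutant-labelled libraries, against 15.2, 2.13 and 14.2 FPKM in sibling-labelled ones. Those 3 follow it too. galr2b, in contrast, had 3.75, 5.59 and 4.07 FPKM in the libraries labelled mutant, against 3.74, 6.2 and 4.24 FPKM in those labelled sibling, with the library labelled sibling replicate 2 highest. bdkrb2 had 0.743, 0.0285 and 1.47 FPKM in mutant-labelled libraries, against 0.0835, 1.02 and 0.917 FPKM in sibling-labelled ones, where the lowest values rest on 1 and 2 reads. Leaving out both libraries that stood apart, an alternative chosen after seeing the data, gave a median of -0.01 with 58 of 114 receptor genes below 0, and 0 called.

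In the rbm8a table at 21 hpf a library labelled mutant held the highest values. The library labelled mutant replicate 2 was highest in 57.1% of the 112 receptor genes tested, against 34.5% of all genes, and the library labelled mutant replicate 1 was lowest in 38.4%, against 17.6% of all genes. s1pr5b had 2.07, 42.2 and 2.16 FPKM in the libraries labelled mutant, against 1.47, 1.49 and 3.49 FPKM in those labelled sibling. s1pr3a had 0.395, 16.9 and 0.508 FPKM in mutant-labelled libraries, against 0.562, 0.606 and 0.923 FPKM in sibling-labelled ones, where the high value rests on 59 of 1561184 reads. tacr3a had 1.12, 22.2 and 1.44 FPKM in the libraries labelled mutant, against 1.38, 0.789 and 2.66 FPKM in those labelled sibling. In each of these genes a single library is more than 5-fold above the other 5. In FPKM skeletal muscle markers summed to 127 FPKM in that library, against 259 to 437 FPKM in the others. Endothelium markers summed to 52.2 FPKM there, against 19.2 to 34.5 FPKM in the others, pigment cell markers to 38.6 FPKM, against 10.4 to 19.1 FPKM, and neuron markers to 55 FPKM, against 44.7 to 69.7 FPKM. Of all libraries of this table, the size factors set the depth of that labelled mutant replicate 2 furthest above its reads, in proportion. Relative to read totals, its FPKM are thus lowered against the others. Its low muscle sum and its neuron sum within the range of the others therefore hold for the FPKM scale only. The part of these markers' cell types in the receptor levels, and that of the sequencing run, was not tested.

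Of the 114 receptor genes 112 passed the FPKM minimum at this stage, as did 98.3% of all genes, and limma called 0 of them, as for 0% of 30411 genes. At an unadjusted p under 0.05, 1 receptor gene was higher, against 0.773% of all genes, and 1 lower, against 1.4% of all genes. The median was -0.06 with 68 of 112 below 0, against 50.6% of all genes, and it was 0.18 with 33 below 0 when the RUVs factor, a covariate estimated from how libraries of the same label differ, was left out, 0.00 with quantile normalization and 0.14 without the library labelled mutant replicate 1, so the sign of the median changed with these settings. The labelled groups do not overlap in 3 receptor genes (4.57% of all genes), adrb3a and sstr2b being higher (2.12% of all genes) and galr1b lower (2.44% of all genes).

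adrb3a, a beta adrenergic receptor, had 9.73, 7.92 and 12.2 FPKM in mutant-labelled libraries, against 4.49, 6.9 and 5.96 FPKM in sibling-labelled ones, with a difference of 0.78 ± 0.27 (SE, limma adjusted p = 1.0). sstr2b had 17.1, 18.5 and 19.4 FPKM in the libraries labelled mutant, against 14, 5.07 and 11.2 FPKM in those labelled sibling, a difference of 0.84 ± 0.40 (SE, limma adjusted p = 1.0). In the rbm8a table at 21 hpf both genes are higher in every library labelled mutant, while in the magoh table their labelled groups overlap. galr1b, a galanin receptor, had 0.766, 0.742 and 0.329 FPKM in mutant-labelled libraries, against 1.53, 1.19 and 0.966 FPKM in sibling-labelled ones, a difference of -0.49 ± 0.24 (SE, limma adjusted p = 1.0), on 4 and 2 reads in the libraries labelled mutant replicates 2 and 3. The next genes were thinly covered. chrm3b, a muscarinic receptor, had 0.533, 1.94 and 0.382 FPKM in the libraries labelled mutant, against 1.14, 0.823 and 2.67 FPKM in those labelled sibling (log2 difference -0.67 ± 0.28 SE, limma adjusted p = 1.0). bdkrb2 had 1.16, 0 and 0 FPKM in mutant-labelled libraries, against 1.53, 0.914 and 1.26 FPKM in sibling-labelled ones (log2 difference -0.63 ± 0.33 SE, limma adjusted p = 1.0) and npy7r, a neuropeptide Y receptor, had 1.27, 0 and 0.256 FPKM in the libraries labelled mutant, against 1.25, 1.05 and 2.05 FPKM in those labelled sibling (log2 difference -0.59 ± 0.32 SE, limma adjusted p = 1.0). The zeros of these genes stand in the shallowest libraries of the table, and their labelled groups overlap.

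Receptor families at 21 hpf in the rbm8a table were led in several cases by the same genes as at 27 hpf. htr6 had 5.02, 33.4 and 26.2 FPKM in mutant-labelled libraries, against 20.8, 3.6 and 19.2 FPKM in sibling-labelled ones, lpar4 had 16.7, 2.78 and 10.3 FPKM in the libraries labelled mutant, against 9.0, 16.2 and 9.22 FPKM in those labelled sibling, and tacr1a had 9.01, 8.13 and 7.43 FPKM in mutant-labelled libraries, against 5.18, 9.97 and 7.56 FPKM in sibling-labelled ones. Each of them was covered by at least 37 reads in every library, and none separated the labels. grm6b had 1.21, 5.09 and 13.3 FPKM in the libraries labelled mutant, against 6.16, 1.26 and 5.67 FPKM in those labelled sibling, galr2b had 4.19, 1.17 and 5.49 FPKM in mutant-labelled libraries, against 4.53, 4.04 and 5.65 FPKM in sibling-labelled ones, and mc4r had 0.346, 17 and 5.02 FPKM in the libraries labelled mutant, against 1.85, 0.981 and 3.17 FPKM in those labelled sibling. In these 3 the libraries labelled mutant spread over a wider range than the difference between the groups. oprd1b was even across the libraries, with 2.11, 2.89 and 2.81 FPKM in mutant-labelled libraries, against 2.46, 1.99 and 2.64 FPKM in sibling-labelled ones. drd4-rs had 1.41, 6.77 and 2.03 FPKM in the libraries labelled mutant, against 1.45, 1.89 and 1.57 FPKM in those labelled sibling, with the library labelled mutant replicate 2 above the other 5.

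That library also carried the highest value of several low genes. chrm2a had 0.428, 9.72 and 0.689 FPKM in mutant-labelled libraries, against 1.87, 0.332 and 1.77 FPKM in sibling-labelled ones, npy4r had 0.495, 9.52 and 0.684 FPKM in the libraries labelled mutant, against 1.31, 1.01 and 1.76 FPKM in those labelled sibling, and bdkrb1 had 0.434, 6.32 and 0.56 FPKM in mutant-labelled libraries, against 0.743, 0.603 and 1.19 FPKM in sibling-labelled ones. htr1b had 0.566, 10.8 and 1.37 FPKM in the libraries labelled mutant, against 1.31, 0.647 and 2.07 FPKM in those labelled sibling, and npy2r had 0.569, 7.38 and 1.05 FPKM in mutant-labelled libraries, against 2.03, 1.25 and 1.45 FPKM in sibling-labelled ones. In all 5 the other libraries labelled mutant lie within or below the range of those labelled sibling. Of the 12 glutamate receptors, 11 were below 0 at 21 hpf in the rbm8a table, with a median of -0.15 and 0 at an unadjusted p under 0.05. Without the RUVs factor 4 of the 12 were below 0, with a median of 0.11, and without the library labelled mutant replicate 1, 5 of the 12 were, with a median of 0.08.

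By place in the file, the receptor genes did not separate more often than other genes when both directions are counted. In the rbm8a table at 27 hpf the first 3 columns were below the last 3 in 3 of 92 receptor genes (3.45% of all genes) and above them in 1 (3.19% of all genes), or 6.64% of all genes in either direction. The median difference by place was -0.11, against 0.01 over all genes, with 59 of 92 receptor genes below 0. chrm3b was lower in the first 3 columns by 0.51 on the log2 scale, with 0.134, 0.689 and 0.380 FPKM there, against 0.992, 0.862 and 1.07 FPKM in the last 3. tacr1b, a second substance P receptor gene, had 0.207, 0.404 and 0.178 FPKM in the first 3 columns, against 0.621, 0.616 and 0.696 FPKM in the last 3. s1pr1 had 1.89, 1.59 and 1.70 FPKM in the first 3, against 2.28, 2.51 and 2.06 FPKM in the last 3. lpar3 was the 1 receptor gene above, with 2.66, 2.68 and 3.48 FPKM in the first 3, against 1.92, 2.55 and 2.45 FPKM in the last 3. These 4 differences by place are between -0.51 and 0.25 on the log2 scale.

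At 21 hpf the places of the rbm8a table did not overlap in 4 receptor genes (5.35% of all genes), 1 above (2.88% of all genes) and 3 below (2.47%). Here the median difference by place was 0.10, against -0.03 over all genes, with 48 of 112 receptor genes below 0. lpar2a had 1.98, 2.04 and 6.49 FPKM in the first 3 columns, against 1.77, 1.64 and 1.53 FPKM in the last 3. mc2r, the corticotropin receptor, had 0.987, 1.08 and 0 FPKM, against 1.39, 1.22 and 1.76 FPKM in the last 3. mc5rb had 0.509, 0.518 and 0.264 FPKM in the first 3, against 0.531, 1.64 and 1.11 FPKM in the last 3, and drd2a had 0.934, 0.844 and 0.783 FPKM, against 1.02, 1.16 and 1.4 FPKM. The zero and the 0.264 FPKM of the first 3 columns rest on 0 and 1 read.

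In the magoh table the places did not overlap in 3 receptor genes (4.21% of all genes), 1 above (1.87% of all genes) and 2 below (2.34%). Its median difference by place was -0.11, against 0.02 over all genes, with 77 of 114 receptor genes below 0. tacr2, a neurokinin A receptor, had 4.33, 5.66 and 3.53 FPKM in the first 3 columns, against 3.11, 3.16 and 3.39 FPKM in the last 3. bdkrb2 had 0.743, 0.0835 and 0.0285 FPKM, against 1.02, 1.47 and 0.917 FPKM, and mc5rb had 0.846, 0.407 and 0.812 FPKM, against 0.890, 0.858 and 0.870 FPKM in the last 3. In this table magoh itself overlaps between the places. No receptor gene separated by label in the same direction in both rbm8a tables. oprm1 was the 1 gene lower by label in the magoh table and also in the rbm8a table at 27 hpf, where it did not pass the minimum. There it had 17, 7 and 1 reads in mutant-labelled libraries and 5 reads in sibling-labelled replicate 2. No share over all genes was taken for separation in 2 tables, so this recurrence has no background.

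**Figure D4:**
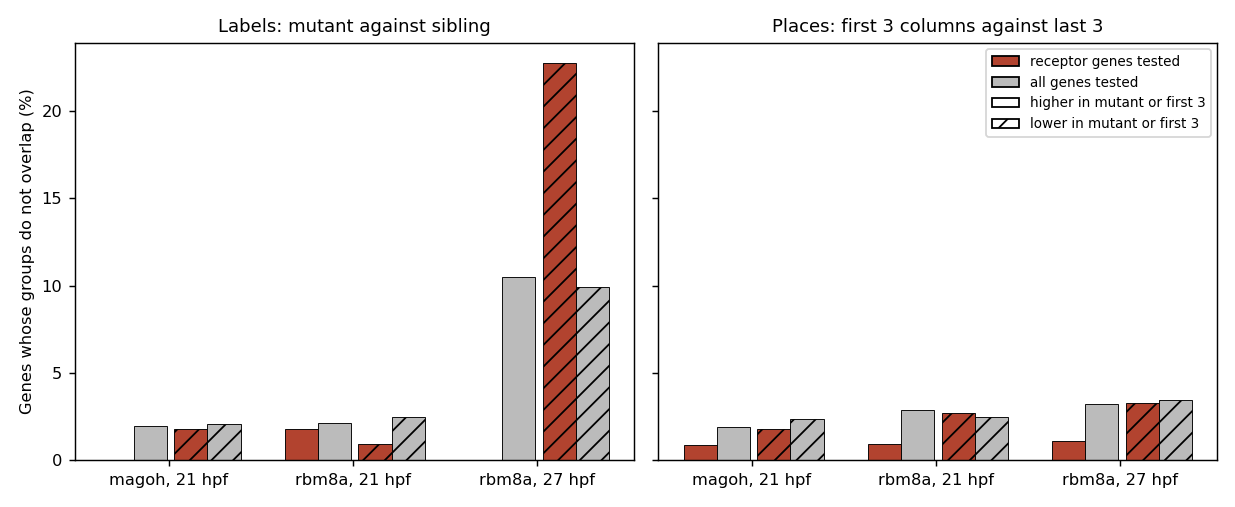
Share of genes (%) whose groups of 3 libraries do not overlap, for receptor genes tested (red) and all genes tested (gray), plain bars for higher and hatched bars for lower in the group named first. Left, libraries labelled mutant against those labelled sibling, and right, first 3 columns against last 3. The receptor share exceeds that of all genes by more than 1 percentage point only for lower values by label at 27 hpf (22.8% of receptor genes, 9.92% of all genes).

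At 12 hpf the most abundant receptor genes were lipid receptors. Of 112 receptor genes, 20 passed a minimum of 0.5 FPKM in 2 libraries (17.9%, against 60% of all genes), and the 7 with the highest mean were all lysophosphatidic acid or sphingosine 1-phosphate receptors. The 20 were 9 amine, 8 lipid, 2 peptide receptors and the glutamate receptor grm4. In each library 13 to 21 receptor genes were listed at 0, and the median receptor gene had between 7.5 and 14.5 reads.

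In upf1 morphants limma called 0 of the 20 receptor genes, against 1.12% of all 17057 genes called higher and 1.18% called lower. With no fold threshold 2 receptor genes rose (11.2% of all genes) and 1 fell (12.8% of all genes). lpar2a, a lysophosphatidic acid receptor, had 17.6 and 15.6 FPKM in morphants, against 12.5 and 11.9 FPKM in controls, and rose on the log2 scale by 0.41 ± 0.06 (SE, limma adjusted p = 0.00924). s1pr2 had 11.7 and 12.6 FPKM in morphants, against 10.2 and 10.3 FPKM in controls, and rose by 0.23 ± 0.05 (SE, limma adjusted p = 0.0279). sstr2a, a somatostatin receptor, fell, with 1.24 and 1.28 FPKM in morphants, against 1.82 and 2.04 FPKM in controls, a difference of -0.38 ± 0.08 (SE, limma adjusted p = 0.0189). In each of these 3 genes the 2 morphant libraries lie on the same side of both controls.

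Further lipid receptors had differences that missed the threshold. s1pr1, a receptor known from blood vessels, had 0.768 and 0.667 FPKM in morphants, against 1.11 and 1.01 FPKM in controls (log2 difference -0.26 ± 0.08 SE, limma adjusted p = 0.0591). lpar6a had 9.12 and 9.11 FPKM in morphants, against 8.0 and 8.26 FPKM in controls (log2 difference 0.15 ± 0.05 SE, limma adjusted p = 0.070), and lpar4 had 3.54 and 3.94 FPKM in morphants, against 4.31 and 4.67 FPKM in controls (log2 difference -0.21 ± 0.07 SE, limma adjusted p = 0.0835). Morphants and controls do not overlap in these 3, as in 66.3% of all genes. Of the 20 receptor genes 13 did not overlap, 8 higher (32.4% of all genes) and 5 lower (33.9% of all genes). lpar2b, the most abundant receptor gene of this stage, had 36.5 and 33.4 FPKM in morphants, against 35.2 and 36 FPKM in controls, a difference of -0.03 ± 0.05 (SE, limma adjusted p = 0.705). s1pr5a had 9.57 and 9.21 FPKM in morphants, against 8.9 and 8.71 FPKM in controls, and lpar1 had 4.82 and 5.33 FPKM in morphants, against 4.28 and 4.7 FPKM in controls. The median over the 20 genes was -0.02, against 0.00 over all genes, with 11 below 0.

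Among the amine receptors adra2da, an alpha-2 adrenergic receptor, had 1.28 and 1.4 FPKM in morphants, against 1.0 and 0.947 FPKM in controls (log2 difference 0.25 ± 0.07 SE, limma adjusted p = 0.061), while its close relative adra2db had 1.62 and 1.69 FPKM in morphants, against 1.59 and 2.1 FPKM in controls. The highest serotonin receptor was htr1ab with 1.16 and 1.23 FPKM in morphants, against 1.58 and 0.98 FPKM in controls, and the highest muscarinic one chrm4a with 1.48 and 1.79 FPKM in morphants, against 1.45 and 1.9 FPKM in controls. grm4 had 1.07 and 1.37 FPKM in morphants, against 0.992 and 1.46 FPKM in controls. Apart from adra2da these genes overlap between morphants and controls. Neuron markers passed the adjusted threshold in 3 of 4 tested, all lower, and their summed level was 69.9 to 72.8 FPKM in morphants, against 89.4 to 90.4 FPKM in controls. Skeletal muscle markers summed to 23.2 to 28.0 FPKM in morphants, against 35.9 to 39.9 FPKM in controls, and acta1a, a muscle actin, was called lower. Their part in the receptor values was not tested.

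**Figure D5:**
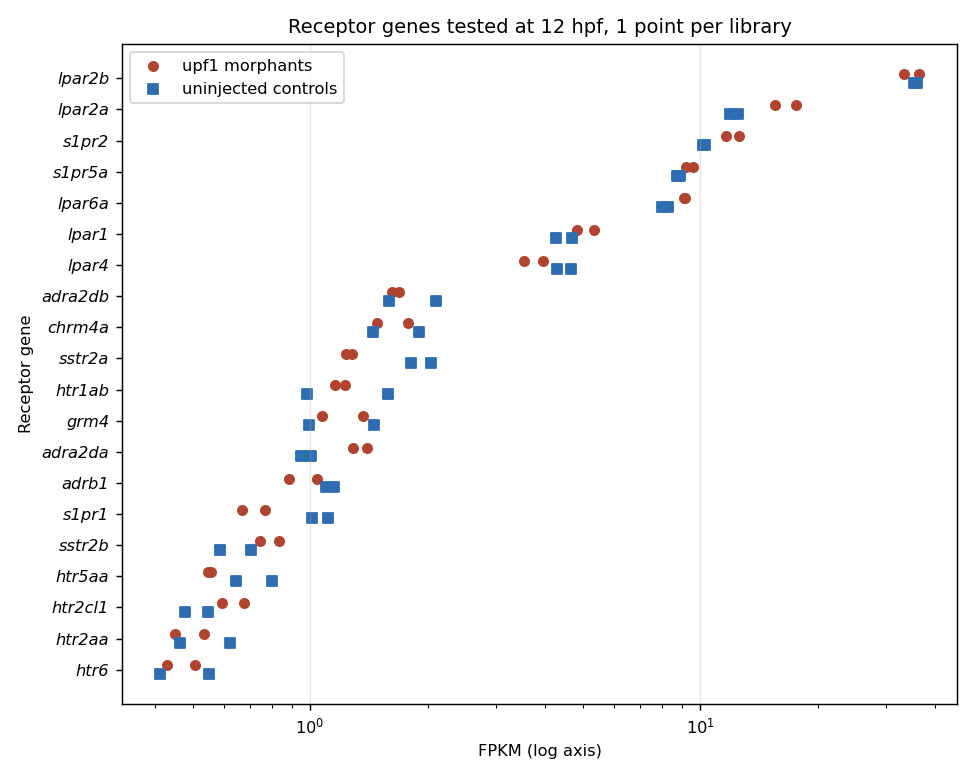
FPKM, on a log axis, of the 20 receptor genes tested at 12 hpf, with 1 point per library for upf1 morphants (red circles) and uninjected controls (blue squares). The 7 uppermost genes, from lpar2b at 33.4 to 36.5 FPKM down to lpar4, are lipid receptors, and lpar2a is higher and sstr2a lower in both morphant libraries than in both controls.

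Genes that make, carry or break down the ligands were described from lists chosen with earlier results of these data known. In each mutant table limma called 0 genes of any list, as it called 0 genes in all. Of the 18 amine synthesis and transport genes measured, 16 were tested at 27 hpf in the rbm8a table and 12 were below 0 (median -0.19), against 49.3% of all genes. They include th, the rate-limiting enzyme of catecholamine synthesis, with 1.23, 1.97 and 1.03 FPKM in the libraries labelled mutant, against 4.88, 2.23 and 2.32 FPKM in those labelled sibling (log2 difference -0.76, adjusted p = 0.333). th2 had 0.644, 0.390 and 0.370 FPKM, against 0.850, 0.957 and 1.31 FPKM in those labelled sibling. Both genes are lower in every library labelled mutant, as are dbh and slc18a2, which make and package noradrenaline. Of the 16 genes tested, 4 were lower without overlap (9.92% of all genes) and 0 higher (10.5% of all genes). An unadjusted p under 0.05 (limma) was reached by 2 of them, against 14.8% of all genes.

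The peptide precursors were lower in 16 of 19 tested at 27 hpf (median -0.17), against 49.3% of all genes. Among them was pyyb, a peptide of the neuropeptide Y family, with 29.1, 31.1 and 52.2 FPKM in the libraries labelled mutant, against 63.6, 66.9 and 61.1 FPKM in those labelled sibling. kng1, the precursor of bradykinin, stood higher in every library labelled mutant, with 4.05, 2.41 and 3.15 FPKM, against 1.73, 2.27 and 1.51 FPKM in those labelled sibling. Of the 19 precursors, 3 were lower without overlap (9.92% of all genes) and 1 higher (10.5% of all genes). An unadjusted p under 0.05 was reached by 3 of them, against 14.8% of all genes. The enzymes and transporters of lipid ligands were above 0 in 8 of 12 (median 0.05), the G protein alpha subunits in 10 of 16 (median 0.10) and the arrestins and receptor kinases in 5 of 8 (median 0.03). Medians were thus below 0 for the ligand lists of the amine and peptide classes, and not for the other 3 lists. At 21 hpf the medians of these 5 lists lay between -0.06 and 0.18 in the magoh table and between -0.05 and 0.11 in the rbm8a table.

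In upf1 morphants 0 genes of these 5 lists were called. With no fold threshold plpp1a, a phosphatase that breaks down lysophosphatidic acid, had 8.02 and 8.53 FPKM in morphants, against 11.4 and 11.7 FPKM in controls (log2 difference -0.44, adjusted p = 0.00395). sphk2, a kinase that makes sphingosine 1-phosphate, had 6.99 and 7.64 FPKM in morphants, against 9.14 and 8.96 FPKM in controls (-0.27, adjusted p = 0.0207). Both fell, while cers2b, a ceramide synthase, rose by 0.22 on the log2 scale. sst1.2 and kng1 were the 2 peptide precursors that fell, mao, an amine-degrading oxidase, rose, and so did the G protein alpha subunits gnai1 and gna11a. By list these were 1 of 5 amine, 2 of 7 peptide, 3 of 12 lipid and 2 of 14 G protein genes tested. Of the arrestins and receptor kinases it was 0 of 6. At the same threshold 11.2% of all genes rose and 12.8% fell.

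The study lists 6 of the 114 genes as having an intron in the 3′UTR, a feature that can place an EJC downstream of the stop codon and expose a transcript to NMD: grm6b, npy2rl, sstr5 and s1pr5b with the intron close to the stop codon, and lpar2b and lpar6a with it farther away. Only lpar2b and lpar6a passed the minimum in the morphant table, with the values given above. s1pr5b had 0.272 and 0.194 FPKM in morphants, against 0.124 and 0.208 FPKM in controls, and grm6b had 0.163 and 0.174 FPKM in morphants, against 0.183 and 0.101 FPKM in controls, on 14 to 72 reads a library. Neither separates the groups. npy2rl and sstr5 had at most 4 reads in any library of that table. In the mutant tables these 6 genes include 1 whose labelled groups do not overlap, sstr5 at 27 hpf, which had 0.882, 0.825 and 0.767 FPKM in the libraries labelled mutant, against 0.996, 1.43 and 1.42 FPKM in those labelled sibling, a log2 difference of -0.33 ± 0.16 (SE, limma adjusted p = 0.358). At that stage 20.4% of all genes do not overlap between the labels, and 9.92% of all genes are lower without overlap.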

How the data were processed

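RNA of whole zebrafish embryos was sequenced in 22 libraries. The submitters' processing notes name cutadapt 1.16, while the study's methods give another version for the mutant libraries and a sequencing core for the trimming of morphant reads. Per the labels and the study's methods, the authors aligned reads with TopHat2 2.0.14 to GRCz10, counted them per Ensembl gene and deposited FPKM per library. The deposited FPKM were found to be scaled by size factors, and the authors also deposited a mean normalized signal per gene. FPKM multiplied by that signal over the mean FPKM and divided by each library's smallest step gave values within 0.05 of a whole read for 100% of values under 200 reads. Fold changes, standard errors, test statistics and p-values of the authors' own comparisons, which fill further columns, were not used.

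Receptor genes were taken by the start of their symbol. log2(FPKM + 1) was fitted with limma 3.58.1 in R 4.3.3 over all genes with at least 0.5 FPKM in 3 libraries (2 for morphants), so fold changes of low genes are understated. Mutant tables had 1 RUVs factor (the study does not state its number), and morphants none. p-values were adjusted by Benjamini-Hochberg over all genes tested, and genes were called at an adjusted p under 0.05 and 1.5-fold. The fit was also run on simulated data. Their noise was drawn independently for each gene, without the differences between libraries that many genes share here. That run therefore does not show how the fit deals with such differences. Tables and figures were made with Python 3.11.15, numpy 2.4.6, pandas 2.3.3 and matplotlib 3.10.9. The alternatives were other numbers of RUVs factors, a replicate block, other FPKM minimums, a pseudocount of 0.1, quantile normalization, rescaling to read totals, no fold threshold, and each library left out in turn.

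Values in every library are given for called genes, the 6 tested genes with the smallest p in each comparison, the tested gene with the highest mean in each family, htr1b, npy2r, tacr3a, mc4r, bdkrb2 and s1pr3a, and up to 4 genes separated by place in each mutant table. Other genes named were chosen after their values were seen. The members and lists were chosen with earlier results of these data known. Receptor genes with and without introns, and RIP-Seq (sequencing of RNA pulled down with Rbm8a) of receptor transcripts, were not analysed here.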

Additional observations from a re-analysis of the deposited data

How the results depend on the processing

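In each of the 4 comparisons, 0 receptor genes were called under every alternative run that kept all libraries and the fold threshold. With no fold threshold 3 were called in morphants and 0 in each mutant table. With a library left out, 0 to 2 were called at 27 hpf, the 2 being htr2cl2 and mc4r without the library labelled sibling replicate 2, and 0 to 0 in the other 3 comparisons. Fits that leave 1 library in an upf1 group assume that it varies like the other group. Of 299 values of 39 named gene results under alternatives that kept all libraries, 285 kept their direction and side of the threshold, and 14 in 8 results changed sign without being called. Rescaling to read totals moved the median of all genes to -0.14 in the magoh table (receptor genes -0.09) and to -0.08 in the rbm8a table at 21 hpf (receptor genes -0.09). A pseudocount of 0.1 gave a receptor median of -0.60 at 27 hpf. Over all genes, 0 were called at 27 hpf, against 25 higher and 7 lower with 2 RUVs factors, and 191 higher and 202 lower in morphants, against 384 and 517 with that pseudocount. Without the library labelled rbm8a mutant replicate 1, 1 gene was called higher and 25 lower at 21 hpf, with 0 receptor genes among them. The receptor median at 21 hpf in the rbm8a table ranged from -0.15 to 0.14 as libraries were left out, and the cause was not tested.

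Replicate numbers did not pair the libraries. Same-numbered libraries had correlations of their deviations from the group means of -0.78, -0.71 and 0.64 in the magoh table, and all were below 0 in both rbm8a tables, while those of the 2 morphant pairs were 0.18. With the replicate block 0 receptor genes were called in each comparison, among 0 genes in each mutant table and 196 higher and 218 lower in morphants. At an unadjusted p under 0.05 the block gave 15 receptor genes at 27 hpf and 8 in morphants. Not every library correlated best with its own number. Receptor genes were thinly covered in 6 libraries of the mutant tables, where 28 to 64 of them had under 10 reads. Not all 6 were shallow. In the magoh table the library labelled mutant replicate 1 had 32 such genes in 19536839 reads, against 1 in 14884582 reads for sibling replicate 1. In the rbm8a table at 21 hpf the library labelled mutant replicate 1 had 28 in 16865868 reads, against 3 in 16582011 reads for sibling replicate 1.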

Other observations

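Of the 112 receptor genes listed in the morphant table, 92 stayed under the FPKM minimum at 12 hpf and were not in the main fit. Among these, htr1b had 26 and 26 reads in upf1 morphants, against 4 and 6 reads in controls, or 0.211 and 0.210 FPKM, against 0.0413 and 0.0560 FPKM. drd6b had 13 and 16 reads in morphants and was listed at 0 in both controls. drd2l, a D2-like dopamine receptor gene, had 16 and 22 reads in morphants, against 3 and 1 reads in controls, and grm1a had 100 and 100 reads, against 27 and 55 reads. In all 4 genes morphants and controls do not overlap. Over the 92 genes, FPKM do not overlap in 20 that were higher and 11 that were lower in morphants. The share over all genes, 66.3%, covers only genes that passed the minimum. None was taken for genes under it, so these counts have no background of their own. With at least 10 reads in each library of the higher group, these were 9 higher genes and 4 lower ones, adra1aa, adrb2a, lpar6b and tacr1a. That read minimum was asked only of the group in which a gene was higher, and the morphant libraries were the deeper ones. These counts by direction therefore cannot be weighed against each other. Of the lower ones adra1aa had 11 and 19 reads in morphants, against 26 and 35 reads in controls, and adrb2a had 165 and 180 reads, against 199 and 198 reads. mc4r had 7 and 9 reads in morphants, against 2 and 2 reads in controls, and bdkrb2 was listed at 0 in both morphants, against 4 and 4 reads in controls. These genes were chosen after their values were seen, and none was in the main fit. With no minimum all 112 receptor genes were fitted, and 0 were called. In that fit 17 of the 112 had an unadjusted p under 0.05 (limma), against 7455 of all 28441 genes.

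The gene models behind the FPKM had a median of 1579.5 bases over the receptor genes, with a range from 936 to 5643 bases. Over all 30281 genes tested in the magoh table the median was 1810 bases. Of the receptor lengths 54 of 114 were a multiple of 3, and so were 10738 of those 30281. At 27 hpf the median log2 difference was -0.32 over the 42 tested receptor genes with such a length and -0.32 over the other 50 tested receptor genes.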
